A study of Ovis aries with 16 samples.

Results

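The genes described are 7 subunits or subtypes of glutamate receptor and 1 enzyme of glutamate metabolism, measured in the hypothalamus of late-gestation fetal sheep. They are the AMPA receptor subunits GRIA1, GRIA2, GRIA3 and GRIA4, the NMDA receptor subunit GRIN1, the metabotropic receptors GRM5 and MGLUR3 (now GRM3), and glutamate dehydrogenase 1 (GLUD1). Those described here were chosen by name: every non-control probe whose gene name in the scanner files, or alias in the description, was one of these 8. This gave 8 of the 927 genes given a name here, and 14 of the array's 15008 distinct probes. The study had 4 groups of 4 fetuses, 1 array each. Control fetuses had a sham occlusion and no drug. BCO fetuses had the brachiocephalic artery, the vessel that carries blood to the fetal head, occluded for 10 min. Estradiol fetuses received 250 µg of the estrogen a day for 5 days and a sham occlusion, and estradiol+BCO fetuses received both. All 16 carried implanted catheters and were at 124 to 128 days of gestation (term 147), and the hypothalamus was taken 1 hr after the occlusion or sham period began. The comparisons ask what a brief interruption of blood flow to the brain did to hypothalamic transcripts, and whether prior estradiol altered that.

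Glutamate is the main fast excitatory transmitter of the hypothalamus, including inputs to the neurons that drive the pituitary stress axis. AMPA receptors, assembled from the GRIA subunits, carry fast excitatory current, and NMDA receptors, which all contain GRIN1, admit calcium and are central to excitotoxic injury when blood flow is interrupted. GRM5 couples to phospholipase C, MGLUR3 inhibits adenylyl cyclase and is found on glia as well as neurons, and GLUD1 is the mitochondrial enzyme that interconverts glutamate and alpha-ketoglutarate.

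What each probe reads decides how many independent measurements there are. The probes below, copied from the deposited files and written 5′ to 3′, belong to the 4 genes with a probe at an unadjusted p under 0.05 in a comparison of 2 groups. Capitals mark bases shared with the gene's other overlapping probe. GRIN1 probes A_70_P002822 and A_70_P002821 are the same stretch shifted by 1 base, so they share 59 of 60 bases. GRIN1 probe A_70_P002761 is named NR1 in the files, an older name of the gene, and overlaps neither.
GRIN1 A_70_P002761: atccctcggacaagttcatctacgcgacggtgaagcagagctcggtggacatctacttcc
GRIN1 A_70_P002822: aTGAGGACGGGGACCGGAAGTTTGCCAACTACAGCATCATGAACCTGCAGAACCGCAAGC
GRIN1 A_70_P002821: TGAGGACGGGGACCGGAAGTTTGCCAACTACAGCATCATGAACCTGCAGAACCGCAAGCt
GRIA4 A_70_P002757: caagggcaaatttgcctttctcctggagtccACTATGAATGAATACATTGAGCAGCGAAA
GRIA4 A_70_P002756: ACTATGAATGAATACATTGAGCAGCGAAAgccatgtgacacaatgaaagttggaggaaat
MGLUR3 A_70_P041726: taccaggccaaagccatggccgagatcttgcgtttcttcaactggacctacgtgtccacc
GLUD1 A_70_P014772: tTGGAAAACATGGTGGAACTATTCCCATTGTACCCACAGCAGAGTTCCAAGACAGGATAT
GLUD1 A_70_P026811: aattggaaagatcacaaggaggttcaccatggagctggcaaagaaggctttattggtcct
The GRIA1, GRM5 and GLUD1 pairs are also shifted by 1 base, while the GRIA4 probes share 29 bases. GRIA2, GRIA3 and MGLUR3 have 1 probe each. GLUD1 probe A_70_P026811 carries the gene identifier of GLUD1 but not its name, so it is not among the 14 and is given beside them. Apart from such pairs, no other probe on the array shared a run of 20 bases with a member. Probes of a gene therefore repeat a measurement and are not replicates.

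Levels are log2 of the processed signal minus the array's own 75th percentile, so a level of 0 is the 75th percentile and a difference of 1 is a doubling. The 75th percentile was 2021 to 2904 units and 77.27% to 86.45% of probes were well above background on each array. All 14 member probes were well above background on all 16 arrays, so all were tested, and none was saturated. Signals ran from 146.0 to 539.2 units for the MGLUR3 probe to 15418.6 to 28274.9 units for GLUD1 A_70_P014772. Of the 16 hypothalamic peptide genes listed as markers of the tissue, 10 had a named probe and POMC, AGRP, NPY, GAL, OXT, SST, PMCH and TAC3 were well above background on all 16 arrays. Arrays lay on 2 slides with 2 arrays of each group on each. Slide 2 differed from slide 1 in 858 of 12937 tested probes (6.63%) at a limma adjusted p under 0.05, and in 0 of the 14 member probes.

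By limma with Benjamini-Hochberg adjustment over the 12937 tested probes, 0 of the 14 member probes passed an adjusted p under 0.05 in any of the 7 comparisons, so each difference below is a measured difference that did not pass. The background was as sparse: over all probes 0% passed in 5 of the comparisons, and 0.00773% (1 probe) in estradiol+BCO against estradiol and in the interaction. The lowest adjusted p of a member was 0.27, for GRIN1 A_70_P002822 in estradiol+BCO against BCO. In that comparison 6 member probes were at an unadjusted p under 0.05, from GRIN1, MGLUR3, GRIA4 and GLUD1, all lower in estradiol+BCO, against 9.45% of all probes in either direction and 5.84% lower. The count was 3 without BCO replicate 2, 2 on slide 1 alone and 4 on slide 2 alone, and all 6 rest on the same 4 BCO arrays. All 14 member probes had a lower mean in estradiol+BCO than in BCO, with a median of -0.29 against -0.02 over all probes, although GRIA2 differed by only -0.00. The share of all probes with a lower mean there is not given, nor are such shares for the signs counted below.

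**Figure D1:**
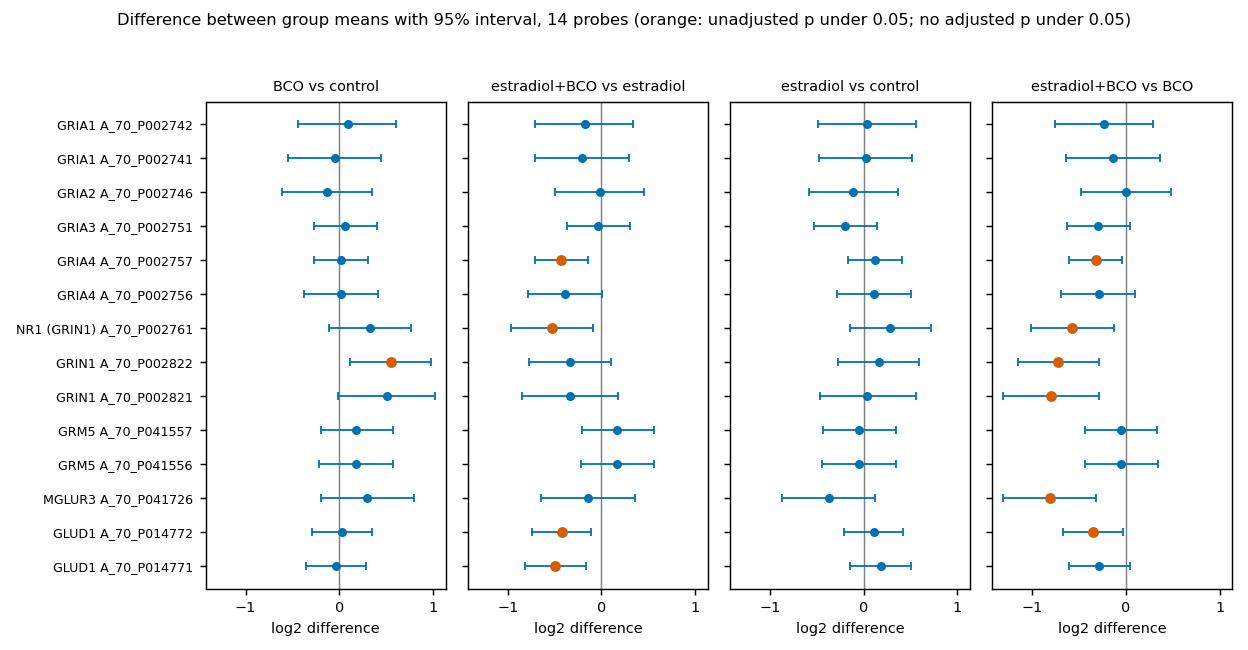
Difference between group means (log2, horizontal axis) with its 95% interval for the 14 member probes in 4 comparisons; orange points have an unadjusted p under 0.05. The right panel, estradiol+BCO minus BCO, holds 6 orange points, all to the left of 0, and the panel of estradiol minus control holds none.

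In BCO against control, 1 member probe was at an unadjusted p under 0.05, a GRIN1 probe that was higher, beside 7.17% of all probes (3.63% higher). That count was 0 without control replicate 4, 3 without BCO replicate 1, and 2 without control replicate 1 or without estradiol+BCO replicate 1 or 3. It was 0 on slide 1 alone and 2 on slide 2 alone. In estradiol+BCO against estradiol there were 4, all lower, 2 of GLUD1 and 1 each of GRIA4 and GRIN1, beside 7.73% of all probes (4.32% lower), and the count was 1 on slide 1 alone and 5 on slide 2 alone. In estradiol against control there were 0, beside 3.28%. These comparisons share arrays with each other, so a like count in several of them is not repeated evidence. By the order of group means, estradiol+BCO was lowest for 12 of the 14 probes and highest for none, and BCO was highest for 8 and lowest for none. Both GRM5 probes were lowest in estradiol instead. Of the 42 pairs of neighbouring groups in these orders 41 overlapped on their arrays, and the exception was control over estradiol+BCO for GRIA4 A_70_P002757. Overlapping probes enter these counts of orders more than once. No like counts over all probes are given, so whether the members stand out by order is not shown.

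GRIA1, GRIA2 and GRIA3, which form most AMPA receptors of the forebrain, had group means that lay close together. The brighter GRIA1 probe had means of -0.27 ± 0.30 (SD, n = 4) in control, -0.18 ± 0.20 in BCO, -0.23 ± 0.52 in estradiol and -0.41 ± 0.36 in estradiol+BCO. The widest spread was in estradiol, where replicate 1 was at -0.88 and replicate 3 at 0.29. GRIA2, the subunit that makes AMPA receptors impermeable to calcium, had means of 1.38 ± 0.11, 1.25 ± 0.35, 1.27 ± 0.16 and 1.25 ± 0.53 in the same order of groups. Its lowest and highest arrays were both in estradiol+BCO, replicate 3 at 0.52 and replicate 2 at 1.76. The estradiol+BCO minus BCO interval of GRIA2 was -0.48 to 0.48, so a change of that size in either direction is not excluded.

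GRIA3 had means of -0.29 ± 0.17 in control, -0.23 ± 0.11 in BCO, -0.49 ± 0.29 in estradiol and -0.52 ± 0.28 in estradiol+BCO (SD, n = 4). Averaged over the occlusion, it was lower with estradiol by -0.25 ± 0.11 (SE; limma unadjusted p = 0.0442, adjusted p = 0.879). That difference was -0.46 on slide 1 and -0.03 on slide 2. The estradiol-treated arrays of slide 1 were between -0.81 and -0.68 and those of slide 2 between -0.40 and -0.12. GRIA3 also read higher on slide 2, by 0.24 (adjusted p = 0.157), as did both GRIA1 probes, by 0.36 and 0.35 (adjusted p = 0.183 and 0.17).

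GRIA4, an AMPA subunit of fast-gating receptors, was lowest in the fetuses given both treatments. At A_70_P002757 the control arrays were at -1.59, -1.97, -1.80 and -2.01 and the BCO arrays at -2.04, -1.66, -1.63 and -1.97. The estradiol arrays were at -1.83, -1.94, -1.43 and -1.69 and the estradiol+BCO arrays at -2.08, -2.15, -2.26 and -2.11. Every estradiol+BCO array thus lay below every array of the other 3 groups, while those 3 groups overlapped. The level in estradiol+BCO was lower than in estradiol by -0.43 ± 0.13 (SE; 95% interval -0.71 to -0.14; unadjusted p = 0.00658, adjusted p = 0.427). Against BCO the difference was -0.32 ± 0.13 (-0.61 to -0.04; adjusted p = 0.47). The second probe, with 29 bases in common, gave -0.39 ± 0.18 and -0.29 ± 0.18. Both probes differed more from estradiol on slide 2 (-0.63 and -0.59) than on slide 1 (-0.23 and -0.18). Without estradiol, BCO minus control was 0.02 at both probes, with intervals of -0.27 to 0.31 and -0.38 to 0.41.

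GRIN1 had its highest mean in BCO and its lowest in estradiol+BCO at all 3 probes. At A_70_P002822 the control arrays were at -0.53, -0.97, -1.15 and -1.42 and the BCO arrays at -0.83, -0.26, -0.50 and -0.29. The estradiol arrays were at -1.04, -0.62, -0.74 and -1.02 and the estradiol+BCO arrays at -0.88, -1.13, -1.63 and -1.13. The 4 BCO arrays were all above the 4 estradiol+BCO arrays, while control replicate 1 lay among the BCO arrays. BCO exceeded control by 0.55 ± 0.20 (SE; 95% interval 0.11 to 0.98; unadjusted p = 0.0168, adjusted p = 0.561). The difference was 0.20 on slide 1 and 0.89 on slide 2. Its shifted partner gave 0.51 ± 0.24 and the NR1 probe 0.33 ± 0.20, both at an unadjusted p over 0.05 (0.0533 and 0.13).

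Between the occluded groups GRIN1 was lower with estradiol, by -0.72 ± 0.20 (SE) at A_70_P002822 (95% interval -1.15 to -0.29; unadjusted p = 0.00301, adjusted p = 0.27). The other probes gave -0.80 ± 0.24 and, for NR1, -0.57 ± 0.20 (adjusted p = 0.295 and 0.374). Without BCO replicate 2 the NR1 difference was -0.37 (unadjusted p = 0.0554, adjusted p = 0.573). The slides differed in size but not in sign: -0.45 and -0.99 for A_70_P002822, and -0.52 and -0.62 for NR1. In the estradiol-treated fetuses, estradiol+BCO was below estradiol by -0.53 ± 0.20 at the NR1 probe (95% interval -0.96 to -0.09; unadjusted p = 0.0218, adjusted p = 0.582), where the 4 arrays of each group did not overlap. The overlapping pair gave -0.34 at both probes, with overlapping arrays. The lowest array of all 3 probes was estradiol+BCO replicate 3 and the highest BCO replicate 2.

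**Figure D2:**
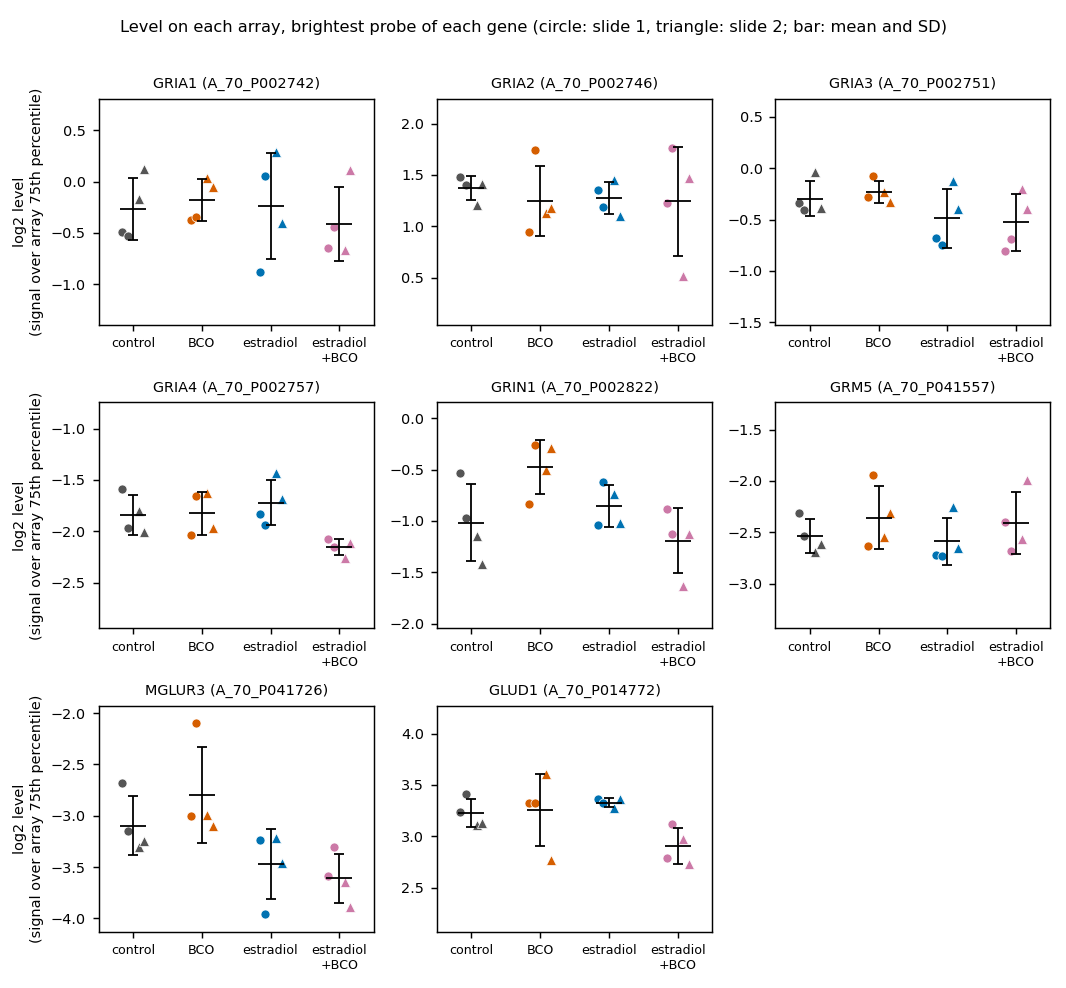
Level on each of the 16 arrays (log2 of signal over the array's 75th percentile) for the brightest probe of each gene, by group, with circles for slide 1, triangles for slide 2, and bars for the mean and SD of 4 arrays. The 4 estradiol+BCO arrays of GRIA4 lie at -2.26 to -2.08, below all others, and BCO replicate 2 of MGLUR3 stands alone at -2.10.

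Of the metabotropic receptors, GRM5, a receptor of postsynaptic neurons, was the 1 member gene whose mean in estradiol+BCO was above that in estradiol. Its brighter probe had means of -2.54 ± 0.16 (SD, n = 4) in control, -2.36 ± 0.31 in BCO, -2.59 ± 0.23 in estradiol and -2.41 ± 0.30 in estradiol+BCO. BCO minus control was 0.18 ± 0.18 (SE; 95% interval -0.20 to 0.57), and estradiol+BCO minus estradiol was 0.17 ± 0.18 (-0.21 to 0.56). The second probe gave 0.18 and 0.17. The interaction was -0.01, with an interval of -0.55 to 0.53, which is too wide to show that the 2 differences were equal.

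MGLUR3 had lower means in both estradiol groups. The control arrays were at -2.68, -3.15, -3.31 and -3.25 and the BCO arrays at -3.00, -2.10, -2.99 and -3.10. The estradiol arrays were at -3.24, -3.96, -3.22 and -3.46 and the estradiol+BCO arrays at -3.59, -3.31, -3.65 and -3.89. All 4 estradiol+BCO arrays lay below all 4 BCO arrays, and BCO replicate 2 stood 0.89 of the group's range away from its nearest neighbour. Averaged over the occlusion, estradiol was lower by -0.59 ± 0.16 (SE; 95% interval -0.94 to -0.24; unadjusted p = 0.00273, adjusted p = 0.831), by -0.79 on slide 1 and -0.40 on slide 2. Between the occluded groups the difference was -0.81 ± 0.23 (-1.31 to -0.32; unadjusted p = 0.0034, adjusted p = 0.275). Leaving out each array in turn gave -0.92 to -0.58. Between the sham groups it was -0.37 ± 0.23 (-0.87 to 0.12), and the arrays overlapped. That sham difference was -0.68 on slide 1 and -0.06 on slide 2.

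GLUD1 was lower in estradiol+BCO than in estradiol at every probe. At A_70_P014772 the control arrays were at 3.24, 3.41, 3.11 and 3.13 and the BCO arrays at 3.32, 3.32, 3.61 and 2.77. The estradiol arrays were at 3.36, 3.32, 3.27 and 3.36 and the estradiol+BCO arrays at 2.79, 3.12, 2.97 and 2.73. The estradiol arrays lay close together and all above the estradiol+BCO arrays, while 1 BCO array, replicate 4, lay among the low ones. Estradiol+BCO was below estradiol by -0.42 ± 0.15 (SE; 95% interval -0.74 to -0.11; unadjusted p = 0.0126, adjusted p = 0.504). The shifted partner gave -0.50 ± 0.15 (unadjusted p = 0.00538, adjusted p = 0.424). Probe A_70_P026811, from another part of the transcript, gave -0.52 ± 0.18 (unadjusted p = 0.00963, adjusted p = 0.474), and its 4 arrays of each group did not overlap either. On slides 1 and 2 the first difference was -0.38 and -0.47.

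Against BCO, GLUD1 was lower in estradiol+BCO by -0.35 ± 0.15 (SE; adjusted p = 0.476) at A_70_P014772, -0.29 ± 0.15 at its partner and -0.53 ± 0.18 at A_70_P026811, each with overlapping arrays. Without BCO replicate 3 the first was -0.23 (unadjusted p = 0.125, adjusted p = 0.684). At A_70_P014772 BCO minus control was 0.03 ± 0.15, with an interval of -0.29 to 0.35, and estradiol minus control was 0.11 ± 0.15 (-0.21 to 0.42). At its partner A_70_P014771 they were -0.03 ± 0.15 (-0.35 to 0.29) and 0.18 ± 0.15 (-0.15 to 0.50), so all 4 intervals include 0. Averaged over estradiol, BCO was lower by -0.26 ± 0.11 at A_70_P014771 (unadjusted p = 0.027, adjusted p = 0.596) and by -0.20 ± 0.09 at GRIA4 A_70_P002757 (unadjusted p = 0.0492). These 2 were the member probes at an unadjusted p under 0.05 in that comparison, beside 7.6% of all probes (3.49% lower), and the count was 0 without estradiol+BCO replicate 1 and on either slide alone. It was 1 without control replicate 1, 2 or 3, BCO replicate 1 or 4, estradiol replicate 3 or 4, or estradiol+BCO replicate 3 or 4. Over all 27 alternatives, settings of the processing included, it fell below 2 in 17.

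Arrays that did not overlap between estradiol+BCO and estradiol were seen for 5 of the 14 member probes (both GRIA4 probes, NR1 and both GLUD1 probes), all lower, beside 2.88% of all probes. Against BCO they were seen for 4, all lower, beside 2.57%. These were GRIA4 A_70_P002757, 2 GRIN1 probes and MGLUR3. Counted by gene, each set comes from 3 genes.

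The interaction asks whether occlusion differed with and without estradiol. It was negative for 13 of the 14 member probes, with a median of -0.42 against -0.01 over all probes, and 6 reached an unadjusted p under 0.05, all negative, beside 7.21% of all probes (4.62% negative). They came from GRIN1, GRIA4 and GLUD1. The largest was -0.88 ± 0.29 (SE) for GRIN1 A_70_P002822 (95% interval -1.49 to -0.27; unadjusted p = 0.0079, adjusted p = 0.484), with the other GRIN1 probes at -0.84 and -0.85. GRIA4 A_70_P002757 gave -0.44 ± 0.19 and both GLUD1 probes -0.46 ± 0.21. The count of 6 was 2 without BCO replicate 2 or control replicate 4, and 3 without control replicate 3, BCO replicate 3, estradiol replicate 2, 3 or 4, or estradiol+BCO replicate 3. It was 0 on slide 1 alone and 5 on slide 2 alone. For GRIN1 A_70_P002822 the interaction was -0.38 on slide 1 and -1.39 on slide 2.

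**Figure D3:**
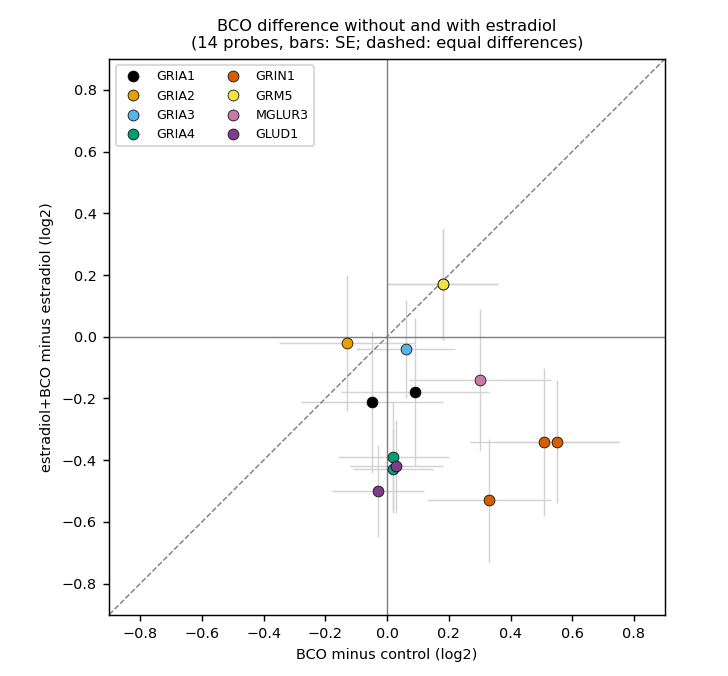
BCO minus control (horizontal axis, log2) against estradiol+BCO minus estradiol (vertical axis, log2) for the 14 member probes, with SE bars and a dashed line of equal differences. GRIN1 lies to the lower right (0.55 and -0.34 for GRIN1 A_70_P002822), GLUD1 and GRIA4 lie straight below the centre, and only GRIA2 is above the line.

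Estradiol averaged over the occlusion was negative for all 14 member probes, with a median of -0.10 against -0.01 over all probes. It reached an unadjusted p under 0.05 for 3, from MGLUR3, GRIN1 and GRIA3, beside 5.58% of all probes (3.66% lower). The count was 1 without control replicate 1, BCO replicate 2, BCO replicate 3 or estradiol replicate 1. Over all 27 alternatives, settings of the processing included, it ran from 1 to 4 and was 1 in 5. In sham-occluded fetuses alone, 9 member probes were higher with estradiol and 5 lower, with a median of 0.04 and a range of -0.37 (MGLUR3) to 0.28 (the NR1 probe of GRIN1).

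For the pairs shifted by 1 base, the difference between the probes varied over the 16 arrays with an SD of 0.14 for GRIA1, 0.12 for GRIN1, 0.11 for GRM5 and 0.10 for GLUD1. The within-group SD of each pair's mean was 0.35, 0.32, 0.26 and 0.21, and the median within-group SD over all tested probes was 0.25. For these pairs the SD of the difference was below the within-group SD of the mean, but such probes read nearly the same sequence. For the GRIA4 pair, with 29 bases in common, the SD was 0.17 beside a within-group SD of 0.21. Without shared bases it was 0.12 beside 0.23 for GLUD1 A_70_P026811 against A_70_P014772. For NR1 against A_70_P002822 it was 0.25 beside 0.27. The SD of a difference over all arrays and the within-group SD of a mean are unlike measures. They are set side by side only as a description.

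**Figure D4:**
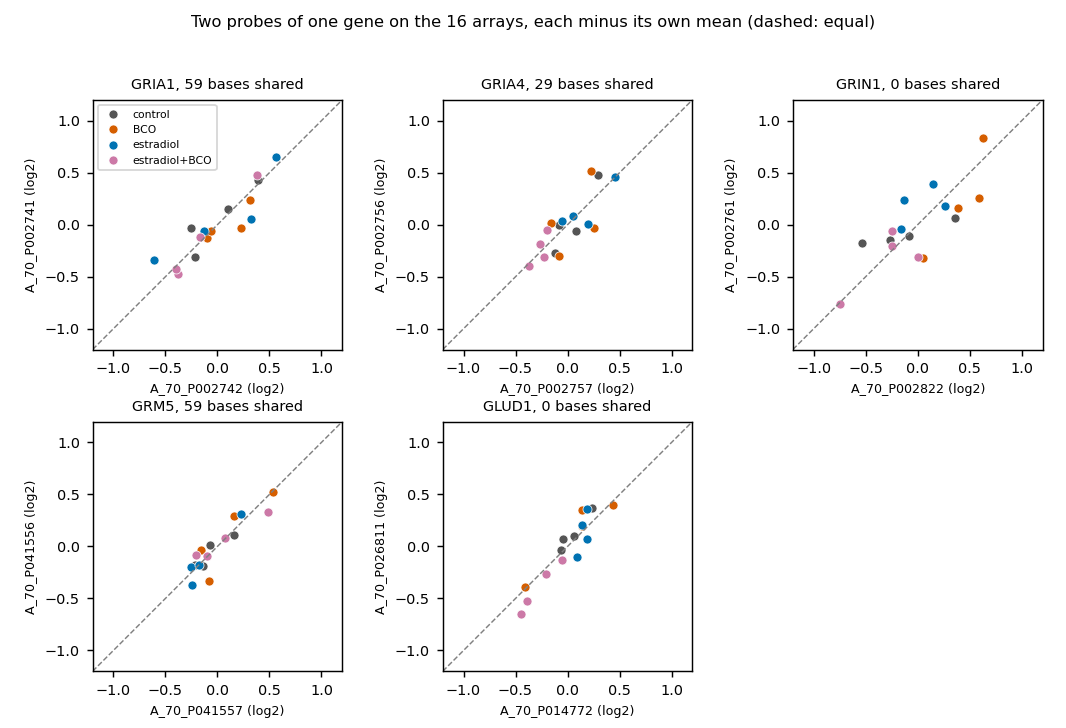
Level of 1 probe of a gene against another on the 16 arrays, each minus its own mean (log2), with a dashed line of equality and colours for groups. Points of the GLUD1 probes, which share no bases, stay within 0.20 of the line, and those of GRIN1, which also share none, within 0.37.

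BCO replicate 2 was the highest of the 16 arrays for all 3 GRIN1 probes, both GRM5 probes, MGLUR3 and GRIA4 A_70_P002756. Estradiol+BCO replicate 3 was the lowest for GRIA2, both GRIA4 probes and all 3 GRIN1 probes. Without BCO replicate 2 the means of estradiol+BCO stayed below those of BCO for each of the 6 probes counted in that comparison.

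Of 71 other genes of glutamate signalling listed for comparison, 8 had a named probe: the metabotropic receptors GRM2, GRM4, GRM6, GRM7 and GRM8 and the transporters SLC1A1, SLC1A2 and SLC1A3, named EAAT3, EAAT2 and EAAT1 in the files. GRM2 was well above background on only 6 of the 16 arrays. None of the 8 passed an adjusted p under 0.05 in any of the 7 comparisons, and in estradiol+BCO against BCO 6 were lower and 2 higher, with a median of -0.35. The 3 with the lowest p there were GRM8 (-0.58 ± 0.19, SE; adjusted p = 0.357), GRM7 (-0.59 ± 0.20; adjusted p = 0.367) and SLC1A2 (-0.63 ± 0.25; adjusted p = 0.439). GRM7 and GRM8 are presynaptic receptors that curb glutamate release, and SLC1A2 and SLC1A3 are the astrocyte transporters that clear it.

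In estradiol+BCO against estradiol the list was divided, 4 higher and 4 lower. The lowest p were those of GRM8 (-0.57 ± 0.19, SE; adjusted p = 0.493), SLC1A3 (-0.64 ± 0.24; adjusted p = 0.567) and SLC1A2 (-0.65 ± 0.25; adjusted p = 0.572). After BCO alone 7 were higher and 1 lower, with a median of 0.16, led by GRM7 (0.34 ± 0.20; adjusted p = 0.793), SLC1A1 (0.26 ± 0.16) and SLC1A2 (0.29 ± 0.25). With estradiol alone 4 were higher and 4 lower, led by SLC1A3 (0.35 ± 0.24), SLC1A2 (0.32 ± 0.25) and SLC1A1 (-0.18 ± 0.16), all at an adjusted p of 1. For the interaction, 6 were negative, with SLC1A2 at -0.94 ± 0.35, GRM8 at -0.73 ± 0.28 and GRM7 at -0.70 ± 0.29 (adjusted p = 0.568, 0.578 and 0.628). With the main effects, SLC1A1 had the lowest p in both: 0.22 ± 0.12 for BCO and -0.21 ± 0.12 for estradiol. Then came GRM8 (-0.20) and SLC1A3 (-0.24) for BCO, and GRM7 (-0.24) and GRM8 (-0.22) for estradiol.

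In this bulk tissue fewer cells of a type and less RNA per cell cannot be told apart. The levels of cell type markers also differed between groups. The mean level of the 10 measured peptide genes was -0.67 in control (arrays -0.85 to -0.36), -3.07 in BCO (-3.97 to -2.62), -0.93 in estradiol (-2.22 to 0.37) and -1.52 in estradiol+BCO (-2.64 to -0.43). It was therefore lowest in BCO, where GRIN1 and MGLUR3 had their highest means. In estradiol+BCO against BCO 8 of the 10 were higher, with a median of 1.39. In BCO against control 9 were lower, while PMCH was higher (-4.62 in control, -4.24 in BCO). Dim genes weigh on the mean of the peptide genes. GHRH, well above background on 11 of the 16 arrays, was at -2.23 in control and -8.36 in BCO. GNRH1, well above background on 14, was at -4.44 and -6.74. Apart from PMCH, the genes well above background on all 16 arrays were lower in BCO as well. In control and BCO, AGRP was at -1.04 and -5.84, GAL at -0.44 and -3.26, and OXT at 1.29 and -1.41. NPY was at 1.61 and -0.09, POMC at 1.24 and -0.31, SST at 4.03 and 2.71, and TAC3 at -2.10 and -3.16.

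Of 10 astrocyte markers 6 were measured, AQP4, GFAP, GJA1, FGFR3, SLC1A2 and SLC1A3, of which the last 2 are also in the list of glutamate genes. Their mean level was -0.46 in control (arrays -0.62 to -0.26), -0.36 in BCO (-0.55 to -0.13), -0.26 in estradiol (-0.39 to -0.15) and -0.58 in estradiol+BCO (-0.71 to -0.36). By this mean estradiol+BCO was the lowest group, as it was for GLUD1, and 6 of the 6 were lower than in estradiol, with a median of -0.26. The markers did not fall alike. SLC1A2 (-0.65) and SLC1A3 (-0.64) differed most from estradiol, while AQP4 (5.76 and 5.72) and FGFR3 (-5.13 and -5.19) differed little. Taken singly, GFAP was lowest in control (0.97) and AQP4 in BCO (5.15). Against BCO 5 of the 6 were lower, with a median of -0.32, while AQP4 was higher (5.15 in BCO, 5.72 in estradiol+BCO). Of the 6 markers of meninges and fibroblasts 4 were measured, and all 4 were lower in estradiol+BCO than in estradiol (median -0.47) and than in BCO (median -0.39). Their mean level ran from -2.51 to -1.87 over the control arrays, -2.24 to -1.75 in BCO, -2.26 to -1.48 in estradiol and -2.85 to -1.89 in estradiol+BCO. Of 7 endothelial markers 3 were measured, PECAM1, KDR and SELP, with a mean level of -3.04 in control (arrays -3.43 to -2.79), -2.44 in BCO (-2.67 to -1.97), -2.73 in estradiol (-2.81 to -2.61) and -2.59 in estradiol+BCO (-2.83 to -2.40). It was highest in BCO, as GRIN1 was, with no overlap between the BCO and control arrays. The mean moved mostly through SELP, P-selectin, at -5.82 in control and -4.25 in BCO. PECAM1 was at -0.24 in control and -0.04 in BCO, and KDR at -3.05 and -3.03. The endothelial markers thus did not rise alike, and no share of all probes without overlap is given for BCO against control.

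Of the choroid plexus markers 1 was measured, TTR, the thyroid hormone carrier transthyretin. Its mean was lowest in estradiol+BCO, as for most members, at -0.25 (arrays -2.51 to 1.08), with 1.90 in control (0.56 to 3.70), 0.69 in BCO (-1.72 to 3.85) and 0.18 in estradiol (-1.09 to 2.07). The 4 measured markers of microglia and leukocytes had mean levels of -4.12 in control, -4.18 in BCO, -4.16 in estradiol and -3.94 in estradiol+BCO. None of these marker genes passed an adjusted p under 0.05, and their part in the results was not tested.

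The lists of general neuron, GABA neuron, glutamate neuron and oligodendrocyte markers had 0 genes under their names, so the share of neurons was not measured here. Of the 6 pituitary markers measured, LHB and PRL were well above background on all 16 arrays, CGA on 14, FSHB on 9, GH on 3 and POU1F1 on 0. LHB had group means of 2.06 to 2.30, highest in estradiol+BCO, and PRL of -4.72 to -2.46. CGA had means of -2.08 in control, -5.16 in BCO, -1.95 in estradiol and -6.72 in estradiol+BCO, with SDs of 1.84 to 4.15. FSHB had means of -6.91, -7.57, -5.90 and -8.07 in the same order. The mean of the 4 tested genes was lowest in estradiol+BCO (-4.28), as for most members, and their part in the results was not tested. Array means of the 4 tested genes ran from -4.21 to -0.54 in control, -5.12 to -2.58 in BCO, -3.56 to -1.01 in estradiol and -4.80 to -3.57 in estradiol+BCO.

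Likeness of pattern is given as Pearson's r over the 16 arrays, as a description, among 813 named genes that are not members; the arrays share slides, groups and scaling. GLUD1 was most like SLC1A3, the astrocyte glutamate transporter (r = 0.87, Spearman's rho 0.86), and CPE (r = 0.83). GRIA4 was most like SLC1A2 (r = 0.76) and BAX (r = 0.73). GRIN1 was most like TGFB2 (0.82) and FTO (0.80), GRM5 like ADRB1 (0.78), and MGLUR3 like CSNK1E and YBX1 (both 0.80). GRIA1 was most like SMAD3 (0.72) and TGFBR1 (0.68), GRIA2 like TRHR, the thyrotropin-releasing hormone receptor (0.81), and SNRPA (0.76), and GRIA3 like the antimicrobial peptide genes CATHL3 (0.88) and BAC5 (0.86). Among the 28 pairs of members, GRIA4 and GLUD1 had the highest r, 0.57 (rho 0.53), with 0.39 on slide 1 and 0.73 on slide 2. It was 0.65 without the 2 arrays farthest from the median, and 0.19 for deviations from group means.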

How the data were processed

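Total RNA (integrity numbers 7.4 to 8.4 over the study, per the labels) was hybridised to a 1-colour Agilent ovine array (design 019921). The authors deposited scanner files with the processed signal of 15744 features as an intensity in units, after background subtraction, and spot flags of other kinds, read with Feature Extraction 10.1.1.1 per the file headers. They also deposited a table of log2 values, which equalled log2 signal minus the array's median. No statistical test is given in the sources used here.

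The log2 of the processed signal minus each array's 75th percentile was taken, with flagged spots (2 to 36 per array) left out. The 12937 of 15008 probes that the scanner software called well above background on 4 or more arrays were fitted with limma 3.58.1 in R 4.3.3, with 4 group means, empirical Bayes moderation and 2-sided tests adjusted by Benjamini-Hochberg in each of 7 comparisons. The number of arrays limits precision. In simulated data for BCO against control (12937 probes), 66, 67 and 67 probes were changed by 0.5, 1 and 2 on the log2 scale. Of these 27.3%, 61.2% and 83.6% were called. The simulated noise was normal and independent between probes and arrays, with no slide effect. These shares therefore need not hold for a lone change in the real data.

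Symbols followed the files and a RefSeq table for assembly ARS-UI_Ramb_v3.0, used for names alone, and 1272 tested probes carried 821 names. No genome coordinates were used. All member probes are reported, with statistics for those at an unadjusted p under 0.05 and the other probes of the same gene, and listed genes are counted by their brightest probe. Among the listed glutamate genes, values are given for the 3 with the lowest p in each comparison. The members and lists were chosen with earlier results of these data known. Names under which the files hold the transporters and receptors (EAAT1, MGLUR3 and the like) were matched by hand. Both GRM5 probes carry a gene identifier in place of a gene symbol and were given their name through it. A gene that the rule names, and some other results, are not reported here. Alternatives were median centring, quantile normalization, normexp, other filters on dim probes, slide or replicate number as a block, each slide alone, the deposited log2 table, trended and robust moderation, the compared groups alone, and leaving out each array.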

Additional observations from a re-analysis of the deposited data

Results flagged for a closer look

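In 4 of the 56 sets of 4 arrays (14 probes in 4 groups), 1 array stood apart, with a gap to its nearest neighbour above Dixon's 95% critical value when divided by the group's range; chance alone flags about 1 in 20 such sets, and overlapping probes are not independent. The gap was 0.854 for estradiol replicate 3 at GRIA4 A_70_P002756 (-1.54, the others -1.99 to -1.92) and 0.837 for the same array at GRM5 A_70_P041557 (-2.25, the others -2.73 to -2.65). BCO replicate 2 was high at MGLUR3 (gap 0.89; -2.10, the others -3.10 to -2.99). BCO replicate 4 was low at GLUD1 A_70_P014771 (gap 0.878; 2.58, the others 3.22 to 3.31). The cause was not tested.

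At GRIN1 A_70_P002822 every BCO array was above the control mean while every estradiol+BCO array was below the estradiol mean. The margin was small for estradiol+BCO replicate 1, at -0.88 beside an estradiol mean of -0.86. The arrays of the groups overlapped in both comparisons, and the share of all probes with this pattern is not given. The interaction was -0.88 (0.55 without estradiol and -0.34 with it), and it did not pass by limma after adjustment over all probes (adjusted p = 0.484). It was -0.38 on slide 1 and -1.39 on slide 2. The pattern of arrays and means did not hold at the other GRIN1 probes. At the shifted partner A_70_P002821, estradiol+BCO replicate 1 was at -0.84, above the estradiol mean of -0.91. At the NR1 probe, BCO replicate 1 was at -1.72, below the control mean of -1.50.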

How the results depend on the processing

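The 25 log2 differences with an unadjusted p under 0.05, or beside one at GLUD1 A_70_P026811, were recomputed under the alternatives, giving 688 values. All kept their sign and stayed short of an adjusted p under 0.05. Many of the signs could not have changed, so the 688 are not separate checks. Filters, blocks and moderation left each difference as it was, as did leaving out an array outside a comparison of 2 groups. Under each alternative run, 0 member probes passed in each of the 7 comparisons. Counts over all probes were less stable. For BCO against control (0) the count was 14 on slide 2 alone, 3 in the compared groups alone and 0 to 6 leaving out each array (6 without BCO replicate 2). For estradiol+BCO against estradiol (1) it was 0 under median centring, on either slide alone, with the replicate block, in the deposited table and in the compared groups alone, and 0 to 1 leaving out each array. For estradiol against control (0) it was 1 on slide 2 alone. For estradiol+BCO against BCO (0) it was 13 on slide 2 alone and 0 to 5 leaving out each array (5, 3 and 1 without BCO replicates 1, 2 and 4). For estradiol averaged over BCO (0) it was 1 on slide 1 alone and 0 to 1 leaving out each array (1 without estradiol replicate 4). For the interaction (1) it was 0 under median centring, quantile normalization, no filter, either slide alone and the deposited table, 3 with slide as a block, 3 with the replicate block, and 0 to 3 leaving out each array (3 without BCO replicate 1). The causes were not tested.

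Same-numbered arrays were no more alike than other arrays of a slide. Deviations of same-numbered arrays correlated at -0.028 to 0.275 (mean 0.132), other arrays of a slide at a mean of 0.14 and arrays of different slides at -0.136. Such correlations cannot decide whether replicate numbers pair fetuses. The replicate block changed no other count of calls. No scaling moved the median difference of all probes by over 0.1.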
